A study of Mus musculus with 16 samples.

Results

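The presynaptic vesicle release machinery was represented by 38 genes. They were chosen from the SNARE proteins and their factors, the synaptotagmins, the complexins, the active-zone proteins and the synaptic vesicle proteins, by their symbol in the array platform's annotation. Other measured genes of these families were counted with the release genes outside the 38. The chosen genes were 38 of the 16206 genes measured and had 96 of the 37112 probe sets tested. Of the 38 genes, 10 had 1 probe set and 28 had several, up to 6. A further probe set that listed Vamp1 beside another gene was left out.

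Release begins when SNARE proteins on the vesicle and on the plasma membrane zip into one complex, which draws the membranes together. Synaptotagmins sense the calcium that triggers fusion, complexins hold and then promote the assembled complex, and active-zone scaffolds keep primed vesicles close to calcium channels. After fusion an ATPase and its adaptors take the complexes apart. Striatal projection neurons release GABA, so their vesicles are filled by the vesicular GABA transporter, and their release sites lie in the output nuclei and on axon collaterals within the striatum. The mRNAs of release proteins are translated largely in the cell body, which is the part that striatal dissection samples.

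The study took RNA on polysomes of striatal D1 medium spiny neurons (D1-MSN), the dopamine D1 receptor-bearing projection neurons, from C57BL6/J mice killed at 3 months of age. The 9 deletion mice carried the D1-MSN ribosome tag and a homozygous deletion of miR-128-2 specific to these neurons. The 7 control mice were age-matched littermates with the ribosome tag and no such deletion. Experimental repeat 2 held 5 deletion and 3 control arrays, and repeat 1 held 4 of each. The driver of the tag and of the deletion is not given in the labels, so anything else that differs between the genotypes cannot be told apart from the deletion. The titles call the replicates biological.

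The deleted microRNA is shown because it defines the 2 genotypes. Capitals mark the seed, bases 2 to 8, in the mature forms, and the mature 3p strand in the hairpin. The sequences are those of RefSeq, build GRCm38.p6.
miR-128-3p: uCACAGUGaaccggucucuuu
miR-128-2-5p: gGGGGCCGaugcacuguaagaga
Mir128-2 hairpin: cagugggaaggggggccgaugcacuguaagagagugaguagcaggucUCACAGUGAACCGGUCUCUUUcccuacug
The Mir128-2 hairpin lies on the minus strand at chr9:112118636-112118711, with the mature 3p strand at chr9:112118644-112118664. The same mature 3p sequence is also read from Mir128-1 on the plus strand at chr1:128202404-128202424, a locus that the deletion is not labelled as touching. The arrays hold mRNA probe sets and gave no value for the microRNA, and the host gene Arpp21 is no check of the deletion. Szrd1, a gene called higher in the series, had centred log2 values of 0.09 to 0.48 in deletion mice, against -0.51 to -0.06 in control mice. The 2 genotypes did not overlap for that gene. It was named for its call in this same comparison, so it cannot check the labels. Flrt2, also called higher, ran from -0.11 to 0.81 in deletion mice and from -1.84 to -0.01 in control mice, which overlapped.

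All values are log2 expression centred by the authors on each probe set's median over the 16 arrays. They show differences between arrays and no absolute level, so no gene's level can be set against another's, and the presence of D1 neuron markers could not be checked as a level. In pulled-down bulk RNA, fewer cells of a type and less RNA per cell cannot be told apart. The array medians lay between -0.03 and 0.05. A pair of control arrays, replicate 3 of repeat 1 and replicate 1 of repeat 2, differed from the other 14. The mean of 13 measured oligodendrocyte markers was 1.53 and 1.42 on these 2 arrays and at most 0.37 on the others. The mean of 4 measured microglia markers was 0.78 and 0.87 there and at most 0.26 on the others. The log2 signal of 3′ over 5′ control probe sets, a sign of RNA length, was 0.40 on the array of repeat 1 and 1.82, the highest of all 16, on that of repeat 2. It reached 0.22 on the other control arrays and ran from -0.36 to 1.17 on the deletion arrays. The counts by role and the differences that moved most are given with and without these 2 arrays, and the plot of differences shows all 38 genes both ways.

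None of the 38 genes was called between deletion and control D1 neurons at a Benjamini-Hochberg adjusted p under 0.05 in limma's moderated test, in which 0.0617% of all genes were called, all of them higher. The smallest adjusted p among the 38 was 0.44. At an unadjusted p under 0.05 there were 3 of 38, or 7.89%, against 8.69% of all genes. The Munc13 gene Unc13c was the 1 higher, against 4.97% of all genes, and the SNARE ATPase gene Nsf and the calcium sensor gene Syt1 were the 2 lower, against 3.71% of all genes. The exact permutation of genotype within repeats put 3 genes under 0.05, which were Nsf, Unc13b and Unc13c, against 8.31% of all genes. The share at these unadjusted thresholds was close to that of the whole array.

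The differences were small. They ran from -0.35 for Rimbp2 to 0.27 for Unc13c, with a median of -0.04 against -0.00 for all genes, and 15 were positive and 23 negative. The 95% interval of the difference lay within 2-fold in either direction for all 38 genes, against 99.0% of all genes. It lay within 1.5-fold for 36 genes, against 92.4% of all genes. Pclo, with an interval from -0.86 to 0.30, and Rimbp2, with one from -0.71 to 0.01, were the exceptions. These intervals are of a gene's mean over its probe sets, and some single probe sets had wider ones.

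**Figure D1:**
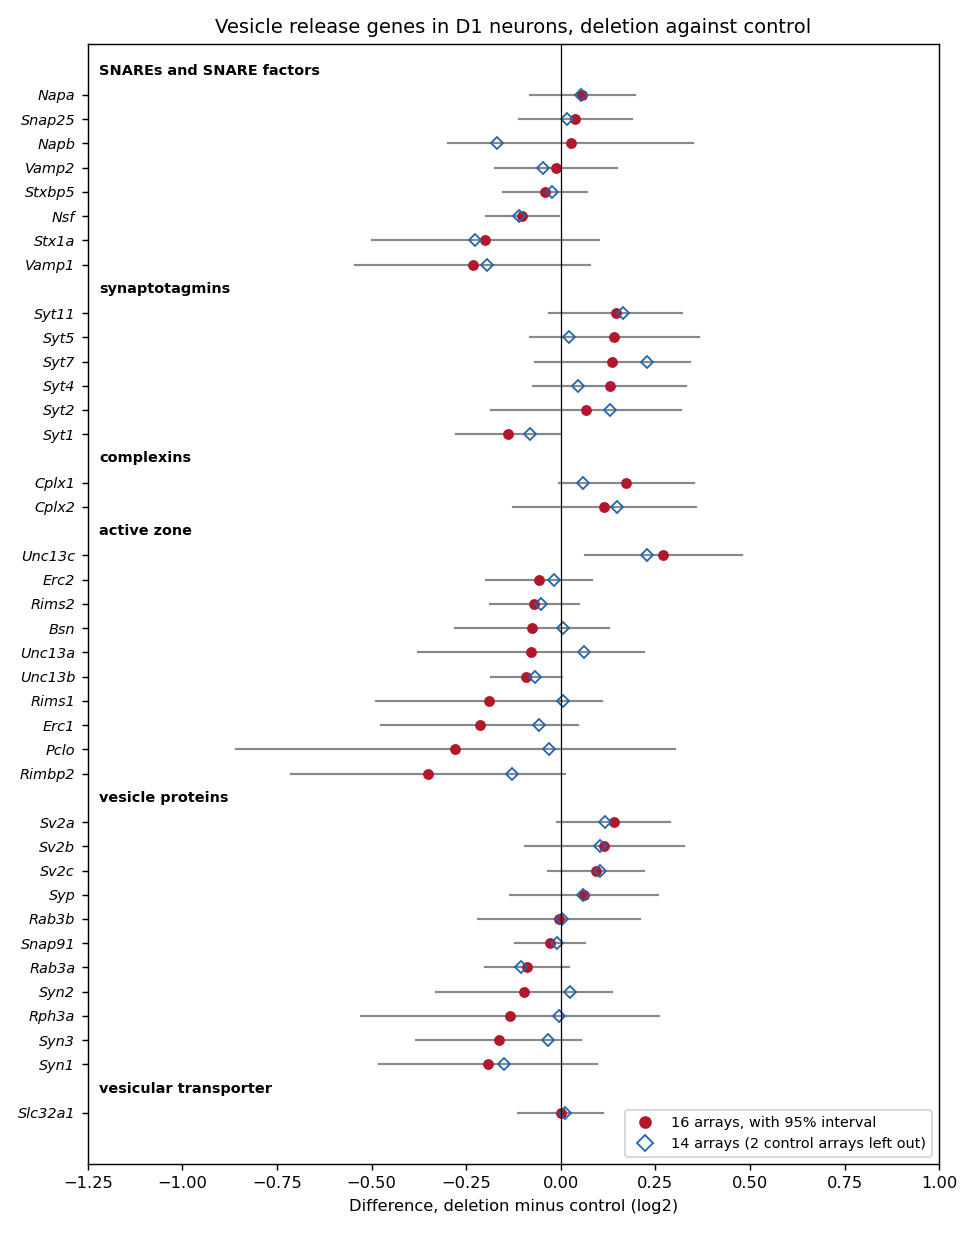
Difference between deletion and control in log2 for the 38 release genes, grouped by role, with circles and 95% intervals for 16 arrays and diamonds for the 14 arrays left after 2 control arrays were taken out. The intervals of Nsf, Syt1 and Unc13c leave out 0, and Rims1, Rimbp2, Erc1 and Pclo lie closer to 0 on 14 arrays.

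The SNAREs and their factors were represented by 8 genes with a median difference of -0.03, 3 of them positive and 5 negative. On 14 arrays the median was -0.08, with 2 positive and 6 negative. Snap25 encodes a plasma-membrane SNARE of the fusion complex. Its lowest, median and highest values were -0.49, 0.10 and 0.30 on the deletion arrays, against -0.42, -0.04 and 0.21 on the control arrays. The groups overlapped over nearly their whole range, and the difference was 0.04 ± 0.07 (SE). By repeat it was 0.16 in repeat 2 and -0.08 in repeat 1.

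Nsf encodes the ATPase that takes SNARE complexes apart. Its lowest, median and highest values were -0.24, -0.05 and 0.05 on the deletion arrays, against -0.12, 0.03 and 0.15 on the control arrays. The 4 control arrays of repeat 1 lay between 0.03 and 0.15, and the overlap came mostly from repeat 2. The difference was -0.10 ± 0.05 (SE, adjusted p = 0.55), and 2 of 9 deletion arrays exceeded the control mean within their repeat. It was -0.11 ± 0.05 on 14 arrays.

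The other 6 genes of the group gave no clearer separation. The vesicle SNARE genes Vamp1 and Vamp2 differed by -0.23 ± 0.15 and -0.01 ± 0.08 (SE). Vamp1 had its highest value, 0.89, on control repeat 1 replicate 2. Stx1a, which encodes the plasma-membrane syntaxin, differed by -0.20 ± 0.14. Stxbp5 encodes tomosyn, which binds syntaxin and hinders SNARE assembly, and differed by -0.04 ± 0.05. Napa and Napb encode the SNAP adaptors that bring Nsf to SNARE complexes, and differed by 0.06 ± 0.07 and 0.03 ± 0.15. Napb differed by -0.17 ± 0.13 on 14 arrays.

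The synaptotagmins were represented by 6 genes, 5 with a positive and 1 with a negative difference and a median of 0.13. On 14 arrays the signs were divided in the same way, with a median of 0.09. The negative one was Syt1, which encodes the calcium sensor of fast release. Its lowest, median and highest values were -0.19, -0.08 and 0.18 on the deletion arrays, against -0.18, 0.17 and 0.35 on the control arrays. The control arrays of repeat 1 were mostly the high ones, from 0.09 to 0.35, while the repeat 2 arrays of both genotypes overlapped. The difference was -0.14 ± 0.06 (SE, adjusted p = 0.57), with an exact permutation p of 0.061. Without the 2 control arrays that stand apart, it was -0.08 ± 0.07.

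Syt7 encodes a slower calcium sensor of high affinity. It differed by 0.14 ± 0.10 (SE), and by 0.23 ± 0.10 on 14 arrays, where it was the only member under an unadjusted p of 0.05 and had an adjusted p of 1.00 in limma. Its values ran from -0.27 to 0.52 on the deletion arrays and from -0.29 to 0.22 on the control arrays. Syt2, a fast sensor related to Syt1, differed by 0.07 ± 0.12 and Syt5 by 0.14 ± 0.10, which were 0.13 and 0.02 on 14 arrays. Syt4 and Syt11, synaptotagmins that are not classical calcium sensors of fusion, differed by 0.13 ± 0.09 and 0.15 ± 0.08, and by 0.05 and 0.16 on 14 arrays.

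Both complexin genes had positive differences. Cplx1 had -0.03, 0.04 and 0.18 as its lowest, median and highest values on the deletion arrays, against -0.52, -0.09 and 0.16 on the control arrays. The deletion arrays lay in a narrow band, and all 9 exceeded the control mean within their repeat, which held for no other member. The lowest control value, -0.52, belonged to control repeat 2 replicate 1, an array that stands apart. The other such array, control repeat 1 replicate 3, had -0.26. The remaining control arrays of repeat 1 averaged 0.052. The deletion arrays of repeat 1 ran from -0.004 to 0.079, so not all exceeded that mean. The share of all genes with 9 of 9 was not counted. The difference was 0.17 ± 0.08 (SE, adjusted p = 0.59), and 0.06 ± 0.06 on 14 arrays. Cplx2 differed by 0.12 ± 0.11.

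**Figure D2:**
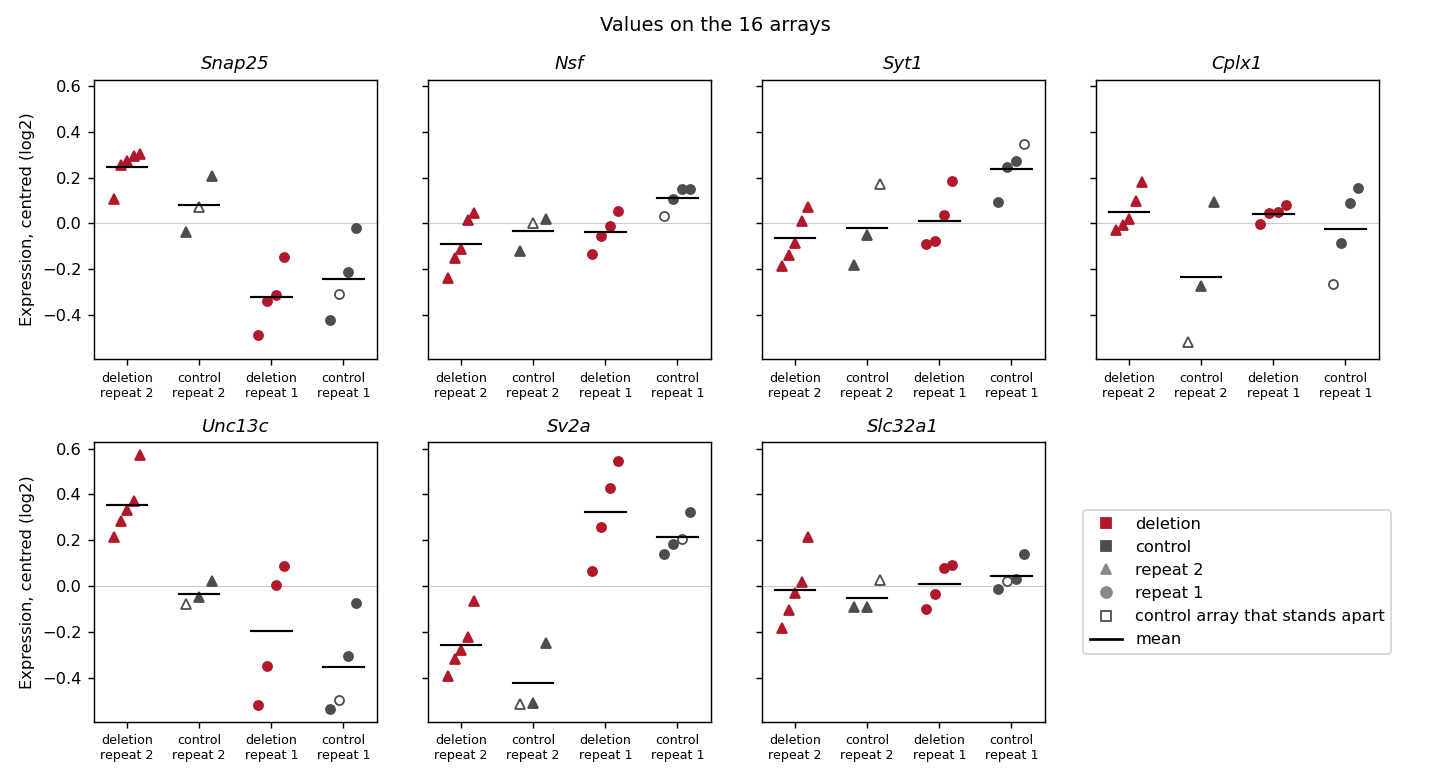
Centred log2 value of Snap25, Nsf, Syt1, Cplx1, Unc13c, Sv2a and Slc32a1 on each array, by genotype and repeat, with the mean as a line and the 2 control arrays that stand apart as open symbols. Unc13c in repeat 2 separates deletion from control, and Sv2a separates the repeats.

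The active zone was represented by 10 genes, 9 with a negative and 1 with a positive difference and a median of -0.08. On 14 arrays 6 were negative and 4 positive, with a median of -0.03. The positive one on 16 arrays was Unc13c, which encodes Munc13-3, a vesicle priming factor best known from the cerebellum. Its lowest, median and highest values were -0.52, 0.21 and 0.57 on the deletion arrays, against -0.54, -0.08 and 0.02 on the control arrays.

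In repeat 2 Unc13c had 0.21 to 0.57 on the 5 deletion arrays and -0.08 to 0.02 on the 3 control arrays, with no overlap. Cplx2, with 0.09 to 0.40 against -0.48 to 0.06, did not overlap there either. Nor did Syn1, in the other direction, with -0.62 to 0.10 against 0.13 to 0.36. The share of all genes without overlap was not counted. In repeat 1 Unc13c had -0.52 to 0.09 on the deletion arrays and -0.54 to -0.07 on the control arrays, which overlapped. The difference was 0.27 ± 0.10 (SE, adjusted p = 0.44), or 1.21-fold, with an exact permutation p of 0.023. It was 0.39 in repeat 2 and 0.16 in repeat 1, and 8 of 9 deletion arrays exceeded the control mean within their repeat. All 3 probe sets of the gene differed in that direction, by 0.36, 0.29 and 0.16. On 14 arrays the difference was 0.23 ± 0.11 (unadjusted p = 0.065).

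The other Munc13 genes among the 38 were Unc13a and Unc13b, which encode the main priming factors of forebrain synapses. They differed by -0.08 ± 0.14 and -0.09 ± 0.04 (SE). Unc13b had an exact permutation p of 0.036 and an adjusted p of 0.59 in limma. The scaffold gene Rims2 differed by -0.07 ± 0.06, and Bsn, which encodes bassoon, by -0.08 ± 0.10, and by 0.00 on 14 arrays. Pclo encodes piccolo, a giant active-zone scaffold, and differed by -0.28 ± 0.27, and by -0.03 ± 0.26 on 14 arrays. Its highest value, 1.69, was on control repeat 1 replicate 3, an array that stands apart. It varied most of the 38 genes within groups, with a residual SD of 0.56 against a member median of 0.20 and an all-gene median of 0.15.

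Rimbp2 encodes a RIM-binding protein that links scaffolds to calcium channels. Its lowest, median and highest values were -0.33, -0.03 and 0.05 on the deletion arrays, against -0.61, 0.35 and 0.83 on the control arrays. None of the 9 deletion arrays exceeded the control mean within their repeat, as also held for Erc1. The share of all genes for which this held was not counted. Without the 2 control arrays that stand apart, the control arrays of repeat 1 averaged -0.077 for Rimbp2 and -0.091 for Erc1. The deletion arrays of repeat 1 ran from -0.222 to 0.006 for Rimbp2 and from -0.332 to -0.002 for Erc1, so some exceeded those means. The difference of Rimbp2 was -0.35 ± 0.17 (SE, adjusted p = 0.59), and -0.13 ± 0.14 on 14 arrays. Erc1 encodes an ELKS scaffold and differed by -0.21 ± 0.12, and by -0.06 ± 0.10 on 14 arrays. Its relative Erc2 differed by -0.06 ± 0.07.

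Part of the active zone was high on the 2 control arrays that stand apart. Of the 38 genes, 5 had their 2 highest values there, or 13.2%, against 3.19% of all genes. Rims1, which encodes the RIM scaffold that ties Rab3-bearing vesicles to the release site, had 0.79 on control repeat 1 replicate 3 and 0.54 on control repeat 2 replicate 1, and at most 0.36 on any other array. Rimbp2 had 0.76 and 0.83 there and at most 0.39 elsewhere. Erc1 had 0.41 and 0.61 there and at most 0.24 elsewhere.

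Unc13a had 0.45 and 0.31 on those arrays and at most 0.23 elsewhere, and Syn3 had 0.22 and 0.64 and at most 0.20 elsewhere. The differences without the 2 arrays were 0.01 for Rims1, 0.06 for Unc13a and -0.03 for Syn3, against -0.19, -0.08 and -0.16 with them. The oligodendrocyte marker means given above were high on the same arrays. The mean of 3 measured D2 neuron markers was 0.56 and 0.54 there and at most 0.37 elsewhere. The part of these in the values of the release genes was not tested.

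**Figure D3:**
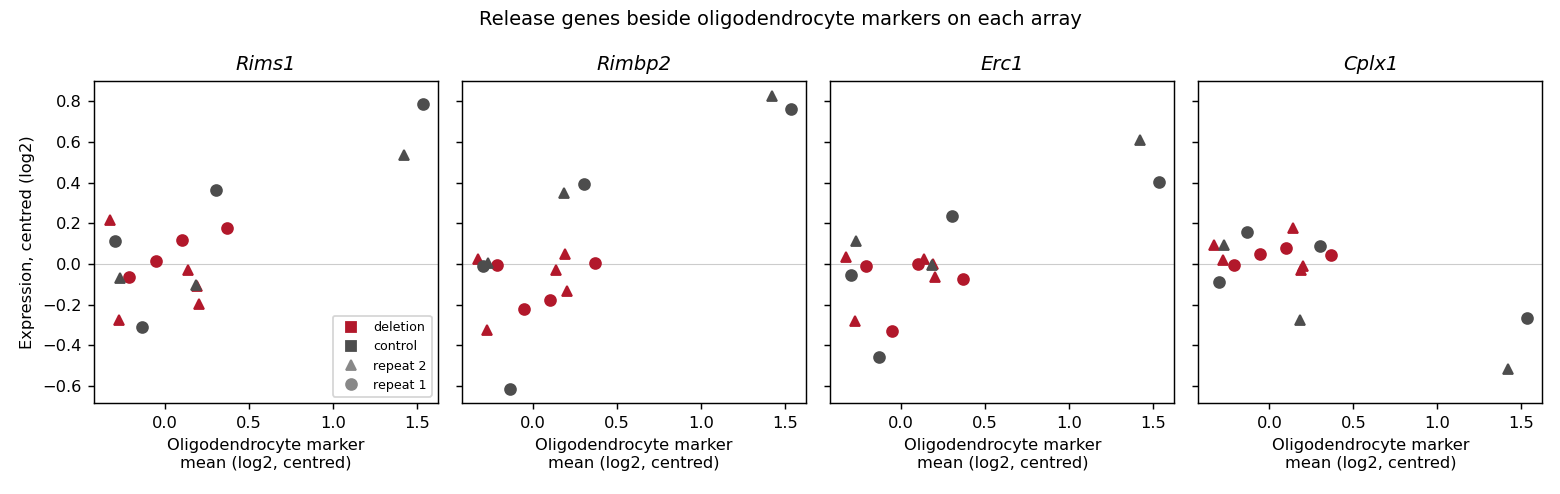
Centred log2 value of Rims1, Rimbp2, Erc1 and Cplx1 against the mean of 13 oligodendrocyte markers on each of 16 arrays, by genotype and repeat. The 2 control arrays with marker means of 1.53 and 1.42 hold the highest values of Rims1, Rimbp2 and Erc1 and low values of Cplx1.

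The vesicle proteins were represented by 11 genes with a median difference of -0.03, 4 of them positive and 7 negative. On 14 arrays 6 were positive and 5 negative, with a median of 0.00. Sv2a, which encodes a vesicle glycoprotein, had -0.40, -0.07 and 0.55 as its lowest, median and highest values on the deletion arrays, against -0.51, 0.14 and 0.32 on the control arrays. The spread of both groups followed the repeat rather than the genotype. With the repeat in the model the difference was 0.14 ± 0.07 (SE, adjusted p = 0.61). Its relatives Sv2b and Sv2c differed by 0.11 ± 0.10 and 0.09 ± 0.06.

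The synapsins tether vesicles in the reserve pool. Their genes Syn1, Syn2 and Syn3 differed by -0.19 ± 0.14, -0.10 ± 0.11 and -0.16 ± 0.10 (SE), and by -0.15, 0.02 and -0.03 on 14 arrays. Syp, which encodes the vesicle protein synaptophysin, differed by 0.06 ± 0.09. The vesicle GTPase genes Rab3a and Rab3b differed by -0.09 ± 0.05 and -0.00 ± 0.10, and Rph3a, which encodes the Rab3 effector rabphilin, by -0.13 ± 0.18, and on 14 arrays by -0.00. Snap91 encodes a clathrin assembly protein of vesicle retrieval and differed by -0.03 ± 0.04.

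Slc32a1, which encodes the vesicular GABA transporter, had -0.18, -0.03 and 0.22 as its lowest, median and highest values on the deletion arrays, against -0.09, 0.02 and 0.14 on the control arrays. The control values all lay inside the deletion range. The difference was -0.00 ± 0.05 (SE), with a 95% interval inside 1.5-fold in either direction.

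**Figure D4:**
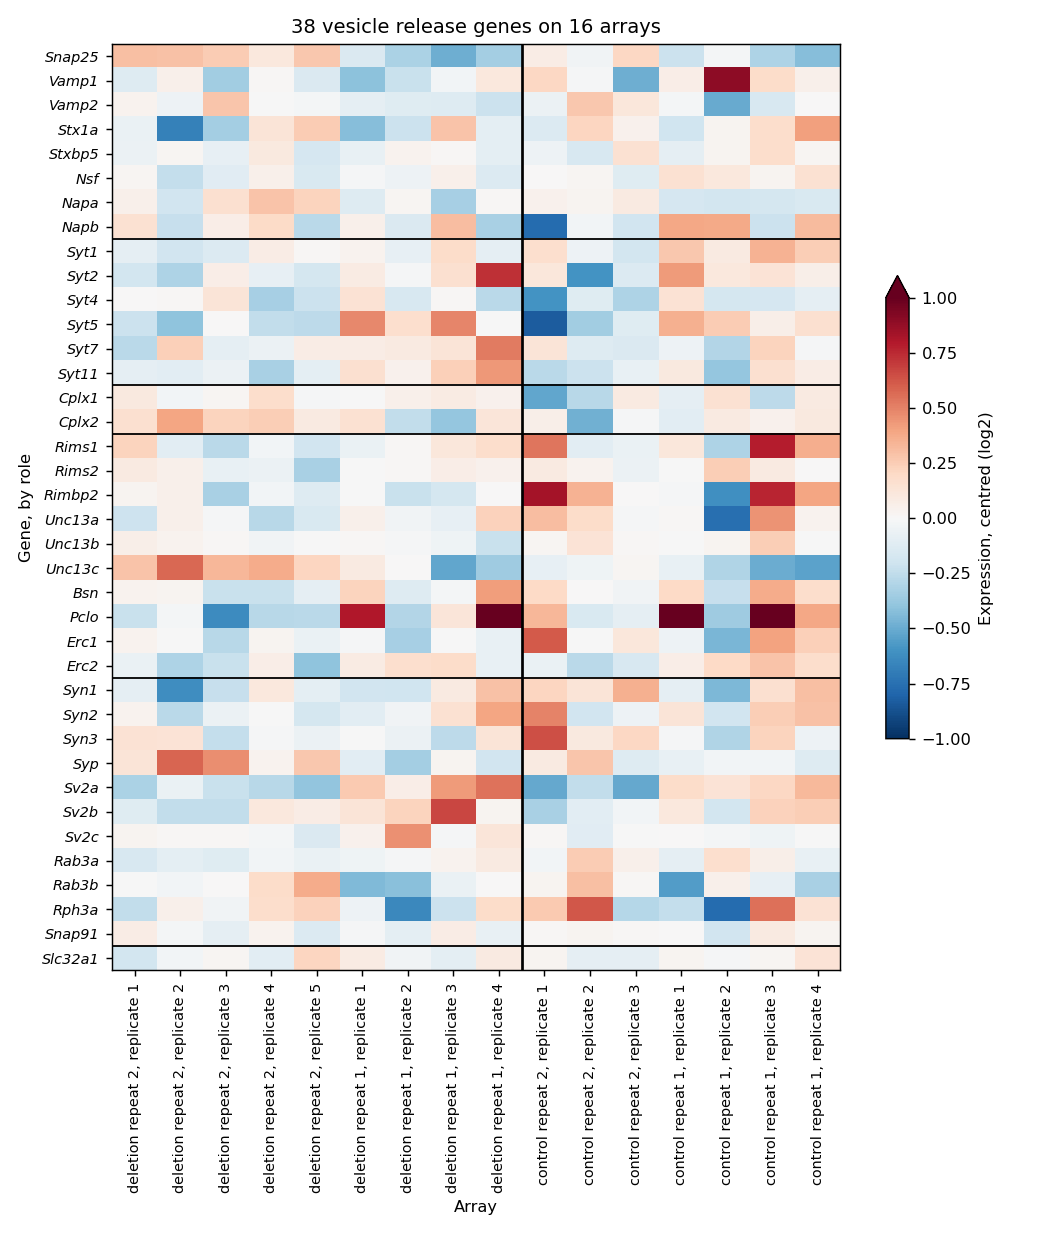
Centred log2 values of the 38 release genes, in rows by role, on the 16 arrays in columns, deletion to the left of the line and control to the right of it, with colours ending at 1 in either direction, which Pclo passes with up to 1.69. The deletion and control blocks show no common shift, while Snap25, Unc13c, Syt5 and Sv2a change between repeat 2 and repeat 1 columns.

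The sign of the difference was the same in both repeats for 30 of the 38 genes, or 78.9%, against 49.0% of all genes. Of these, 11 were higher and 19 lower in deletion arrays. Each repeat held 1 of the 2 control arrays that stand apart. Without those 2 arrays the sign was shared by 17 of the 38, or 44.7%, against 42.8% of all genes. On these 14 arrays 0 of the 38 were called, against 0.00617% of all genes. There 20 differences were positive, 7 had changed sign, and the median was 0.00. At an unadjusted p under 0.05 there was then 1 gene, Syt7, against 4.79% of all genes.

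Single probe sets gave the same count of calls. None of the 96 was called, with a smallest adjusted p of 0.50, against 0.0323% of all probe sets. At an unadjusted p under 0.05 there were 12 of 96, or 12.5%, against 6.84% of all probe sets. Of the 12, in 11 genes, 5 were higher, against 3.71% of all probe sets, and 7 lower, against 3.13%. On 14 arrays there were 6, of which 4 were among the 12, against 3.64% of all probe sets. The authors' deposited table of genotype p-values had 8 of the 96 under 0.05, or 8.33%, against 6.16% of all its probe sets. None of those 8 passed after Benjamini-Hochberg adjustment of the authors' deposited table, where the smallest adjusted p was 0.68.

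Probe sets of one gene often differed in size and sign. Among the 28 genes with several, 15 had all differences of 1 sign and 13 had both signs. Syt11 had 1 probe set with a difference of 0.53 ± 0.17 (SE, unadjusted p = 0.0073), and 4 others between -0.01 and 0.09. That probe set ran from -0.84 to 0.78 on the deletion arrays and from -1.27 to 0.34 on the control arrays. Cplx1 had 1 probe set at 0.43 and the other 2 at 0.07 and 0.02. Syt1 had 1 at -0.44, 1 at -0.12 and 2 at 0.00. Nsf had probe sets at -0.33, -0.05, -0.04 and 0.00, and 2 of them had a residual SD under 0.075.

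Napb, whose 6 probe sets averaged 0.03, had 2 at -0.14 ± 0.06 and -0.13 ± 0.06 (SE) and another at 0.43 ± 0.41. On 14 arrays those 3 were at -0.18, -0.18 and -0.12. The centred values do not show which probe set of a gene had the stronger signal. Few were nearly flat, since 9 of 96, or 9.38%, had a residual SD under 0.075, against 35.5% of all probe sets. Those 9 lay in 7 genes and entered their means. Bsn had 2 such among its 3, and its other probe set differed by -0.23, with a 95% interval from -0.81 to 0.34. The interval of the Bsn mean ran from -0.28 to 0.13.

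The genotype difference was next compared between the repeats. The interaction of genotype and repeat called 0 of the 38 genes and 0% of all genes, with a smallest adjusted p of 0.93 among the 38. At an unadjusted p under 0.05 there was 1, Cplx2, against 4.22% of all genes. Cplx2 differed by 0.37 in repeat 2 and -0.12 in repeat 1 (adjusted p = 0.93 for the difference between them in limma). Unc13c, which differed by 0.39 in repeat 2 and 0.16 in repeat 1, had no call in that comparison.

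More of these genes were called between the repeats than between the genotypes. Between repeat 2 and repeat 1, 11 of the 38 genes were called, or 28.9%, against 14.9% of all genes. The 5 that were higher in repeat 2, against 7.84% of all genes, were Snap25, Unc13c, Rab3b, Syp and Napa. The 6 that were lower in repeat 2, against 7.10% of all genes, were Sv2a, Syt5, Syt2, Erc2, Sv2b and Syt11. In repeat 2, 3 of the 6 synaptotagmins among the 38 and 2 of 3 SV2 genes were lower. The SNARE gene Snap25 was higher there.

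Snap25 ran from -0.04 to 0.30 on the 8 arrays of repeat 2 and from -0.49 to -0.02 on the 8 arrays of repeat 1. The ranges touched at 1 array of each repeat, and the difference was 0.46 ± 0.07 (SE, adjusted p = 0.00066). Sv2a ran from -0.51 to -0.07 in repeat 2 and from 0.07 to 0.55 in repeat 1, with no overlap. Its difference was -0.61 ± 0.07 (SE, adjusted p = 9.2e-05), the largest in size of the 11 called genes.

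Syt5 ran from -0.83 to 0.01 in repeat 2 and from -0.01 to 0.49 in repeat 1, with a difference of -0.57 ± 0.10 (SE, adjusted p = 0.0023). Erc2 differed by -0.31 ± 0.07 (SE, adjusted p = 0.0057), and Unc13c by 0.45 ± 0.10 (SE, adjusted p = 0.0060). These 5 genes stayed called when any single array was left out, on 14 arrays and under both other scalings.

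The other 6 were closer to the threshold. Syp differed by 0.32 ± 0.09 (SE, adjusted p = 0.029), Rab3b by 0.34 ± 0.10 (adjusted p = 0.033), Napa by 0.22 ± 0.06 (adjusted p = 0.033), Syt11 by -0.27 ± 0.08 (adjusted p = 0.035), Syt2 by -0.38 ± 0.12 (adjusted p = 0.039) and Sv2b by -0.31 ± 0.10 (adjusted p = 0.048). On 14 arrays 8 of the 38 genes were called, against 13.8% of all genes. All 8 were among the 11, and Napa, Syt11 and Sv2b were not called there. With array median centring Napa (adjusted p = 0.076) and Rab3b (adjusted p = 0.061) were not called, and with quantile normalization Syp (adjusted p = 0.052) and Rab3b (adjusted p = 0.0501) were not. Leaving out 1 array at a time gave 5 to 13 called members. The count was 5 without control repeat 2 replicate 2. It was 6 without deletion repeat 2 replicate 5, deletion repeat 1 replicate 1 or control repeat 1 replicate 1, and 7 without deletion repeat 2 replicate 4, deletion repeat 1 replicate 3 or control repeat 1 replicate 3.

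The labels do not say what differed between the repeats. The mean of the 13 oligodendrocyte markers ran from -0.33 to 1.42 in repeat 2 and from -0.30 to 1.53 in repeat 1. That of 7 cortical glutamatergic neuron markers differed by 0.23, and ran from -0.85 to 0.48 in repeat 2 and from -0.81 to 0.39 in repeat 1. Of the 11 marker lists, the 5 choroid plexus and ependyma markers differed most, by 0.40, and ran from -0.48 to 1.53 in repeat 2 and from -0.49 to 1.01 in repeat 1. The 3 D2 neuron markers differed by -0.20, and ran from -0.43 to 0.54 in repeat 2 and from -0.03 to 0.56 in repeat 1. The 3′ over 5′ signal ran from -0.36 to 1.82 in repeat 2 and from -0.66 to 0.41 in repeat 1. Their part in the repeat differences was not tested.

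**Figure D5:**
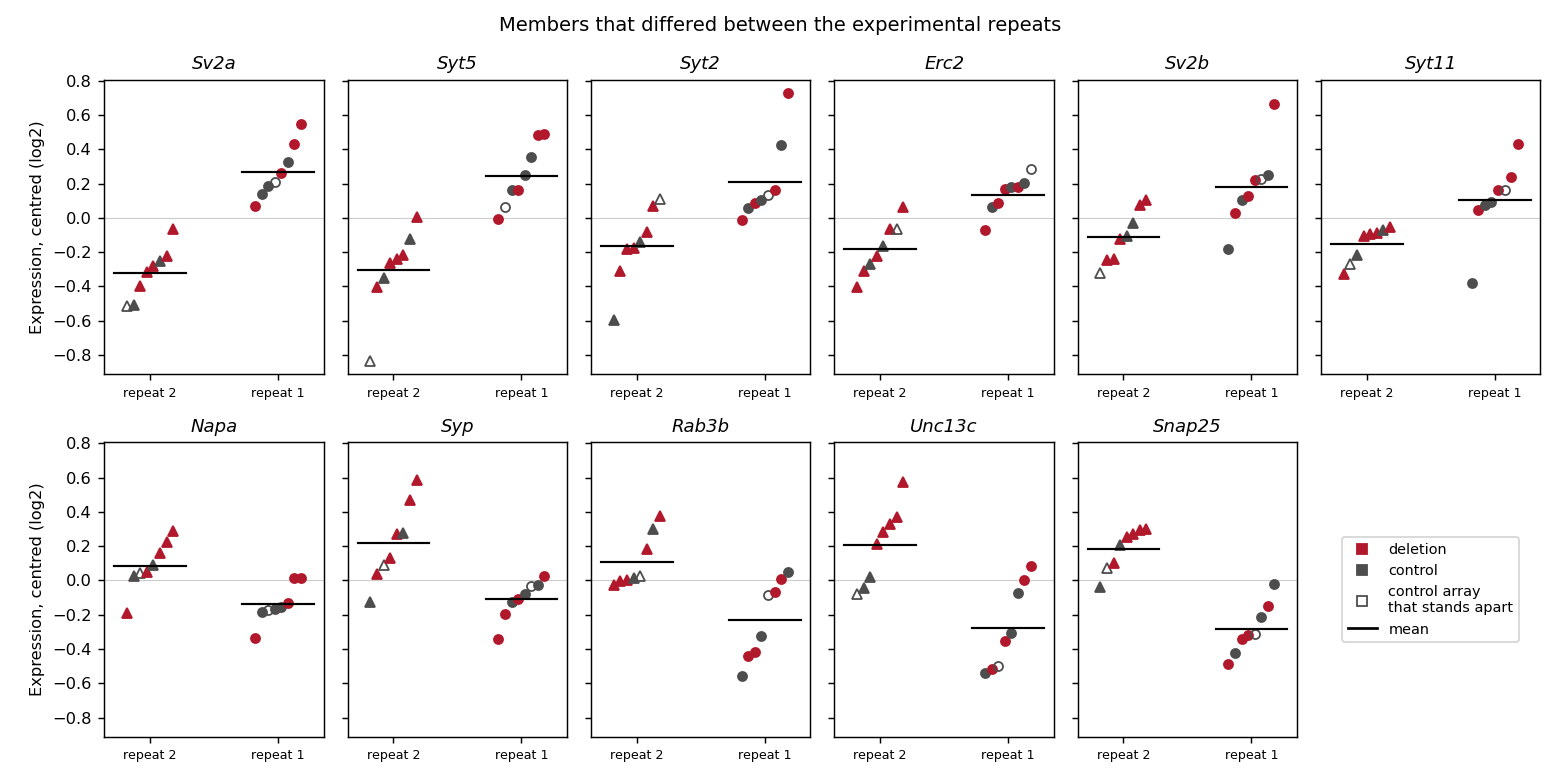
Centred log2 value on each array for the 11 release genes called between experimental repeats, repeat 2 left of repeat 1, coloured by genotype, with the mean as a line. Sv2a does not overlap between repeats, and Snap25, Syt5, Unc13c and Erc2 overlap in part.

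Release genes outside the 38 were taken from a list of further SNAREs, regulators, tethering and docking factors and vesicle proteins, which also held other vesicular transporters and the GABA synthesis enzymes Gad1 and Gad2. Of 64 listed genes 57 were measured, and 0 were called, with a smallest adjusted p of 0.22. At an unadjusted p under 0.05 there were 13, or 22.8%, against 8.69% of all genes, 8 higher and 5 lower, with a median difference of 0.01 over the list. Of the 5 lower, Slc17a7, at -0.54, is also one of the cortical glutamatergic neuron markers. On 14 arrays 8 of the 57 release genes were under an unadjusted p of 0.05, against 4.79% of all genes.

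The gene with the smallest p of that list was Sncb, which encodes β-synuclein. It had -0.37, -0.06 and 0.02 as its lowest, median and highest values on the deletion arrays, against -0.12, 0.09 and 0.63 on the control arrays, a difference of -0.36 ± 0.09 (SE, adjusted p = 0.22). Doc2a encodes a calcium sensor of spontaneous and asynchronous release. It had -1.07, -0.41 and 0.11 on the deletion arrays, against -0.01, 0.43 and 0.79 on the control arrays, a difference of -0.75 ± 0.19 (SE, adjusted p = 0.23). Both genes had deletion values that reached lower than any control value, but the ranges overlapped. Svop, which encodes a vesicle protein related to SV2, differed by 0.31 ± 0.10, Stxbp5l, a second tomosyn gene, by -0.19 ± 0.06, and the RIM-family gene Rims3 by 0.23 ± 0.08. On 14 arrays Sncb, Doc2a, Svop, Stxbp5l and Rims3 differed by -0.26, -0.62, 0.27, -0.18 and 0.24.

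Vesicle recycling genes, which retrieve membrane after fusion, were represented by 22 of 23 listed genes. None was called, with a smallest adjusted p of 0.32, and the median difference was -0.10. At an unadjusted p under 0.05 there were 5, or 22.7%, against 8.69% of all genes, all lower in deletion arrays. Pacsin1, a syndapin gene, had -0.48, -0.10 and 0.22 as its lowest, median and highest values on the deletion arrays, against -0.34, 0.20 and 0.55 on the control arrays, a difference of -0.30 ± 0.09 (SE). Epn1, an epsin gene, differed by -0.38 ± 0.13, the dynamin gene Dnm3 by -0.25 ± 0.09, the clathrin heavy chain gene Cltc by -0.09 ± 0.04 and the synaptojanin gene Synj1 by -0.13 ± 0.05. On 14 arrays 1 of the 22 was under 0.05, or 4.55%, against 4.79% of all genes, while the median stayed at -0.10. There Pacsin1, Epn1, Dnm3, Cltc and Synj1 differed by -0.21, -0.24, -0.17, -0.06 and -0.12.

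Means of marker lists also differed between the genotypes, to unlike degrees. None of their genes was called, and the means themselves were not tested. The mean of the 13 measured of 14 oligodendrocyte markers differed by -0.38, and by 0.06 without the 2 control arrays. The mean of the 4 measured of 8 microglia markers differed by -0.23, and by 0.03 without them. The mean of the 5 choroid plexus and ependyma markers differed by -0.33, and by -0.15 without them, and ran from -0.48 to 0.83 on the deletion arrays and from -0.49 to 1.53 on the control arrays. The mean of the 7 measured of 8 cortical glutamatergic neuron markers differed by -0.30, and ran from -0.85 to 0.48 on the deletion arrays and from -0.42 to 0.41 on the control arrays. Without the 2 control arrays it differed by -0.24. The mean of the 6 measured of 7 markers of the profiled D1 neurons differed by 0.22, and ran from -0.04 to 0.24 on the deletion arrays and from -0.27 to 0.07 on the control arrays. Without the 2 control arrays it differed by 0.18. The mean of the 6 measured of 7 striatal projection neuron markers differed by 0.03 with and without them. That of the 3 measured D2 neuron markers differed by -0.08, and by 0.12 without them. The astrocyte, striatal interneuron, vascular and oligodendrocyte precursor lists differed by -0.12, -0.09, -0.09 and -0.00 on 16 arrays. Most release genes are shared by all neurons, and the part of these shifts in the differences above was not tested.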

How the data were processed

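The members, their roles and the wider lists were chosen with earlier results of these data known. Per the submitters' processing notes, the arrays were processed with GCOS 1.4 and GCRMA, whose roles and order are not given there. The authors deposited log2 expression centred on each of 37174 probe sets' median over the 16 arrays (tested on the file), and, per the file headers, a p-value for genotype from a model with 2 factors. Any filter before that is not given in the sources used here. Depth has no meaning for arrays, and their number limits precision.

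Affymetrix control probe sets (62) were not tested. Of 37112 probe sets, 29680 had 1 gene in the platform annotation, 819 several and 6613 none, and RefSeq symbols were taken by gene identifier (29539 matched). A gene's value is the mean of its probe sets. Groups came from the titles. limma 3.58.1 in R 4.3.3 (lmFit, eBayes) fitted genotype and experimental repeat over 16206 genes, two-sided, with 13 residual degrees of freedom, and Benjamini-Hochberg adjustment over all genes or probe sets. Called means an adjusted p under 0.05. Repeat and interaction terms were tested likewise. Exact permutation used all 3920 regroupings of genotype within repeats. The limma p-values set a difference against the spread between these arrays, moderated over all genes or probe sets. The permutation p-values come from the regroupings of these arrays. The fit was tested on simulated data. Members named with group values were those at an unadjusted p under 0.05, that with the largest moderated t of each role, and Snap25. From each wider list the 5 smallest p-values were named. Rimbp2, Syt7, Pacsin1, the genes high on the 2 control arrays and the probe sets given singly were chosen after their values were seen. Alternatives were the probe set rule, scaling, model terms, variance, array weights, single repeats and arrays left out.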

Additional observations from a re-analysis of the deposited data

Results flagged for a closer look

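In 7 of 76 tests of a gene in a group, 1 array lay far from the others of its group by a gap criterion that chance meets in about 1 of 20 groups. Among the deletion arrays, repeat 1 replicate 4 had Syt2 at 0.73, with the next array at 0.16, and Unc13b at -0.22, with the next at -0.04. Deletion repeat 2 replicate 5 had Rims2 at -0.32, with the next at -0.08. Deletion repeat 1 replicate 2 had Sv2c at 0.46, with the next at 0.12. Among the control arrays, repeat 1 replicate 2 had Unc13a at -0.75, with the next at -0.01, and Snap91 at -0.19, with the next at 0.01. Control repeat 2 replicate 2 had Cplx2 at -0.48, with the next at -0.11. None of these was on the 2 control arrays that stand apart. A criterion for the gap of 1 array can miss 2 arrays that are high together. Rimbp2, with 0.76 and 0.83 on those 2 arrays, was not flagged.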

How the results depend on the processing

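The counts of called member genes, of called member probe sets and of members with an interaction stayed at 0 under each alternative in which they were computed. The count of all genes called, 10, was 4 with no repeat term, 1 with the replicate block, 2 with ordinary variance, 16 with array weights, 1 on 14 arrays, 0 in repeat 2 alone, 0 in repeat 1 alone and 0 by adjusted exact permutation. Leaving out 1 array gave 2 to 10 genes called, a member median of -0.06 to -0.02 and 5 to 13 members called between repeats. The all-gene count was 2 without deletion repeat 2 replicate 3 or 4, deletion repeat 1 replicate 2, control repeat 2 replicate 1 or 2, or control repeat 1 replicate 3, 3 without deletion repeat 1 replicate 3 and 5 without control repeat 1 replicate 1. Shared replicate numbers did not pair arrays (r of -0.30 to 0.43 over 7 pairs, 3 over 0.1, and 2 of 7 highest for the same number), and the replicate block moved the call of 0 members.

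Of the 38 members, 23 kept 1 sign everywhere, 10 higher and 13 lower, and 15 did not. These took the other sign. With the median over probe sets the difference was 0.0052 for Stxbp5, -0.091 for Napb, -0.0095 for Cplx2 and 0.00045 for Bsn. With the most variable probe set the difference was 0.067 for Stxbp5, 0.15 for Rims2 and 0.00022 for Slc32a1. With array median centring the difference was 0.0011 for Slc32a1. With quantile normalization the difference was -0.030 for Napb, 0.0062 for Rab3b and 0.0020 for Slc32a1. With no repeat term the difference was 0.016 for Vamp2, -0.0041 for Napb and 0.038 for Rab3b. With the replicate block the difference was 0.0087 for Vamp2. With array weights the difference was -0.088 for Napb and 0.023 for Rab3b. On 14 arrays the difference was -0.17 for Napb, 0.0060 for Rims1, 0.060 for Unc13a, 0.0044 for Bsn, 0.024 for Syn2, 0.0025 for Rab3b and 0.011 for Slc32a1. In repeat 2 alone the difference was 0.036 for Slc32a1. In repeat 1 alone the difference was -0.081 for Snap25, 0.031 for Vamp2, -0.24 for Napb, -0.12 for Cplx2, 0.11 for Unc13a, 0.019 for Syn1 and -0.087 for Syp. Leaving out 1 array gave -0.10 to 0.095 for Napb, -0.057 to 0.040 for Rab3b, -0.029 to 0.020 for Slc32a1, -0.070 to 0.027 for Vamp2, -0.016 to 0.13 for Syt2, -0.0037 to 0.083 for Snap25 and -0.0030 to 0.10 for Syp. The cause was not tested. The counts at an unadjusted p on 14 arrays, and the sign count there, were added after seeing the data. Signal over background is unknown here, since centring removed it.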
